A study of Homo sapiens with 4 samples.

Results

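Transcripts of the phosphoinositide 3-kinase (PI3K) and AKT pathway were followed through 8 genes: the catalytic subunits *PIK3CA* and *PIK3CD*, the regulatory subunit *PIK3R1*, the kinases *AKT1* and *AKT2*, and the negative regulators *PIK3IP1*, *INPP4B* and *PHLPP1*. They were the rows of the normalized log2 table whose gene symbol matched this list, 8 of 25066 genes listed. The symbol matched directly for 7 of them, and *PHLPP1* was found under its older symbol *PHLPP* by its gene ID. RNA was sequenced from NUDUL1, a human line of diffuse large B cell lymphoma of the germinal center type. The cells descended from a clone with doxycycline-inducible Cas9 and were transduced with Tbxa2r, a thromboxane receptor that couples to Gα13. Control cells carried a control sgRNA and GNA13-deficient cells an sgRNA against *GNA13*, which encodes Gα13, with 1 sgRNA per genotype. Doxycycline was given to both to switch on Cas9, and all 4 libraries, 2 per genotype, came from cells kept for 24 h in 10 nM U46619, a stable mimetic of thromboxane A2. The comparison was therefore between genotypes under receptor stimulation, with no unstimulated cells, and it asked how loss of Gα13 changes transcripts while its receptor is engaged. The labels speak of duplicates and do not say that these were separate cultures, so p values measure the spread between these libraries, which may be technical.

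Class I PI3K adds a phosphate to the membrane lipid PIP2 and so makes PIP3, which recruits AKT to the membrane, where PDK1 and mTORC2 phosphorylate and activate it. Each class IA enzyme pairs a catalytic subunit with a regulatory subunit that stabilizes it and holds it back until a receptor or adaptor binds. p110δ, the product of *PIK3CD*, is the catalytic subunit best known in leukocytes, and B cells use it downstream of the B cell receptor. PIK3IP1 is a transmembrane protein that binds the catalytic subunit and restrains it, INPP4B dephosphorylates a phosphoinositide that also recruits AKT, and PHLPP1 dephosphorylates AKT. Active AKT keeps forkhead box O (FOXO) transcription factors out of the nucleus, and *PIK3IP1* is among the genes known to be driven by FOXO factors.

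Because of that known link, the promoters of the members were searched for the forkhead letters GTAAACA on both strands. Promoter windows came from RefSeq on GRCh38.p14 and held 250 bases before and 50 bases after each annotated start. All 8 members had at least 1 window. A match was found in the single window of *PIK3CA* and in 1 of 2 windows of *PIK3IP1*, and none in the windows of the other members. The share of all 35116 windows with a match was 3.42%. This is a share of windows and not of genes, and many members had more than 1 window. It therefore cannot be set against the number of members with a match. The windows with a match are shown in the direction of transcription, with the matched letters in capitals, which read TGTTTAC because both matches lay on the opposite strand.
PIK3IP1, chr22:31292439-31292738, minus strand: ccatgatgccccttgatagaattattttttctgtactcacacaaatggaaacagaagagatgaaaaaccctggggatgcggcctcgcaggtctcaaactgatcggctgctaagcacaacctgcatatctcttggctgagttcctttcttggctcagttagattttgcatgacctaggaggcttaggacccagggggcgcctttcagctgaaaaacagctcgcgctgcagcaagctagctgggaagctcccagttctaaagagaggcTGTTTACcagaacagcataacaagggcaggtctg
PIK3CA, chr3:179148107-179148406, plus strand: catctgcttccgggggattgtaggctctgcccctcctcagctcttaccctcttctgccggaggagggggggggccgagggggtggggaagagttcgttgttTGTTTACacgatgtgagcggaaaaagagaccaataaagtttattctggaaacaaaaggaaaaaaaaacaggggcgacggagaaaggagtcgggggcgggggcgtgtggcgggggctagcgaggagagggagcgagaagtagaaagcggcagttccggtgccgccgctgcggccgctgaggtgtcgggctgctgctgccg
The *PIK3IP1* match covered window positions 267 to 273, after the annotated start, and the *PIK3CA* match positions 102 to 108, before it. GC content was 49.7% with 6 CpG dinucleotides in the *PIK3IP1* window and 60.7% with 22 CpG dinucleotides in the *PIK3CA* window. In the comparison of genotypes, *PIK3IP1* was lower in libraries labelled GNA13-deficient and *PIK3CA* did not pass the test. The match is a description of these letters only.

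Depth was similar across libraries, at 29209544 to 31537955 mapped reads. Of 25066 genes, 16945 were tested, with an adjusted p under 0.05 for 5037 of them. *GNA13* itself had 5526 and 5671 reads in the control libraries and 8562 and 8213 reads in those labelled GNA13-deficient, which was higher by 0.65 ± 0.05 (log2, SE, 2 libraries per genotype, limma adjusted p = 0.00214). This goes against a lower transcript in the labelled libraries, and a count over the whole gene measures neither an edit at the guide's site nor the protein. The B cell markers *MS4A1*, *CD79A*, *CD79B*, *PAX5* and *CD22* each had at least 1145 reads in every library. Of 6 B cell markers listed, 1 was higher, which is not named here, and 1 was lower. The lower one was *MS4A1* (-0.57, limma adjusted p = 0.00477), while *CD79A*, *CD79B*, *PAX5* and *CD22* did not pass the test. Of 5 germinal center markers, *BCL6* (-2.49, limma adjusted p = 0.00085) and *LMO2* (-3.7, limma adjusted p = 0.00169) were lower in libraries labelled GNA13-deficient. *SERPINA9* was listed at 0 in all 4. The other markers did not pass the test. These were *MME*, with 15157 to 16961 reads (-0.02, limma adjusted p = 0.844), and *MYBL1*, with 44 to 81 reads (0.37, limma adjusted p = 0.473). Of 4 T cell markers, *CD3G* had 1 read in 1 library and the other 3 were listed at 0 throughout; in control replicate 2 a value of 0 stands for 0 or 1 read. Of 4 myeloid markers 2 were lower, and their summed level was 7.67 and 7.80 RPM (reads scaled to library size) in the control libraries against 0.896 and 0.842, while the defining marker *CD14* had 0 to 2 reads. The myeloid markers moved in the same direction as *PIK3IP1* and *INPP4B*, and their part in those differences was not tested.

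In comparison with control, *PIK3CD* and *AKT2* were higher and *PIK3IP1* and *INPP4B* were lower in the libraries labelled GNA13-deficient, while *PIK3CA*, *PIK3R1*, *PHLPP1* and *AKT1* did not pass the test. *PIK3CD* was 1.54-fold higher and the PI3K inhibitor *PIK3IP1* 2.95-fold lower. Of the 8 members 4 were called, against 29.7% of all genes tested. The 2 called higher stand beside a background of 13.1% of genes called higher, and the 2 called lower beside 16.6% called lower. For 7 of 8 members the genotypes did not overlap, which held for 65.3% of all genes tested. The median difference of the members was 0.05 on the log2 scale and that of all genes tested was -0.02. In bulk RNA, a smaller share of cells expressing a gene and less of its RNA per cell cannot be told apart.

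**Figure D1:**
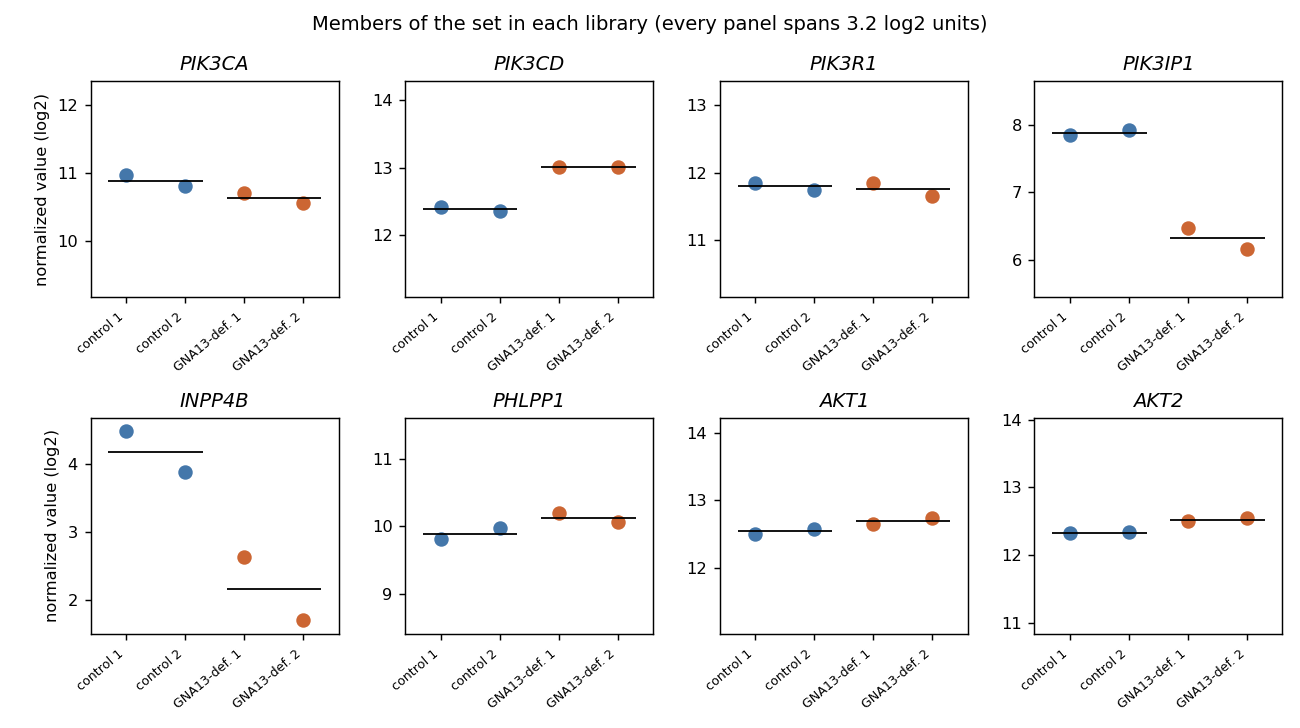
Normalized value (log2) of each member in the 4 libraries, with control libraries in blue, libraries labelled GNA13-deficient in orange and a black line at the mean of each genotype; all panels span the same height. *PIK3CD* sits at 12.36 and 12.41 in the control libraries and at 13.00 and 13.01 in the other libraries, *PIK3IP1* and *INPP4B* drop, and in *PIK3R1* the genotypes overlap.

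Among the catalytic subunits, *PIK3CD* stood apart from *PIK3CA*. The normalized values (log2) of *PIK3CD* were 12.41 and 12.36 in the control libraries against 13.00 and 13.01 in those labelled GNA13-deficient, from 5328 to 8000 reads. Both of the latter were above both controls, and replicates lay within 0.06 of each other. The difference was 0.62 ± 0.05 (log2, SE, 95% interval 0.48 to 0.76, limma adjusted p = 0.00254). It passed the threshold in all 14 alternative analyses, with differences from 0.52 to 0.83. *PIK3CA*, which encodes p110α, the more broadly expressed catalytic subunit, had log2 values of 10.96 and 10.80 in control against 10.70 and 10.55 in those labelled GNA13-deficient. The genotypes did not overlap, but the gap between them was smaller than the spread within either. The difference of -0.26 ± 0.09 (95% interval -0.48 to -0.035) had an adjusted p of 0.0839 in limma. It passed the threshold in 2 of 14 alternatives, and over all 14 the difference lay between -0.34 and -0.05. On the opposite strand, exons of *KCNMB3* cover 19.8% of the *PIK3CA* exon bases, and whether counting used strand is not stated in the sources used here. *KCNMB3* itself had 170 to 212 reads, far fewer than the 1398 to 1963 reads of *PIK3CA*.

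Of the other class I catalytic subunits, *PIK3CB*, encoding p110β, had 451 to 508 reads and a difference of -0.002 ± 0.083 (95% interval -0.22 to 0.21, limma adjusted p = 0.991). *PIK3CG*, encoding the p110γ subunit activated by G protein βγ, had 1806 to 2017 reads and a difference of 0.12 (limma adjusted p = 0.226). Neither passed the test. Expressed as RPKM, reads per kb of transcript scaled to the mapped reads of the library, *PIK3CD* made up 64.0% and 64.8% of the class I catalytic total in the control libraries against 73.2% and 74.7% in those labelled GNA13-deficient. The share of *PIK3CA* was 13.7% and 12.9% in control and 8.66% and 7.98% in the others. *PIK3CG* went from 17.1% in both controls to 14.1% and 13.5%, and *PIK3CB* from 5.22% and 5.28% to 4.02% and 3.81%. The total RPKM itself was 52.9 and 48.2 in control against 67.0 and 63.7, so the lower shares of *PIK3CB* and *PIK3CG* arose while their own log2 values did not pass the test. The log2 value of *PIK3CA* less that of *PIK3CD* was -1.45 and -1.55 in control and -2.30 and -2.45 in the other libraries, a change of -0.88. An exact two-sided permutation test gave p = 0.333, the smallest that 2 libraries against 2 allow.

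The regulatory subunit *PIK3R1*, which encodes p85α and its shorter forms, had log2 values of 11.85 and 11.75 in control against 11.86 and 11.66 in those labelled GNA13-deficient. The genotypes overlapped. The difference of -0.04 ± 0.09 (95% interval -0.27 to 0.18) did not pass the test (limma adjusted p = 0.755), and it changed sign in 3 of 14 alternatives. *PIK3R2*, encoding p85β, had 434 and 464 reads in control and 378 and 364 in the others, a difference of -0.21 that did not pass the test (limma adjusted p = 0.127) and that was 0.003 when each library was centred on its median. *PIK3R3*, encoding p55γ, was higher by 0.33 ± 0.07 (log2, SE, limma adjusted p = 0.0222), with log2 values of 9.62 and 9.71 in control and 10.02 and 9.98 in the others. The class IA regulatory total was 26.3 and 24.4 RPKM in control against 26.3 and 23.2 in those labelled GNA13-deficient. *PIK3R1* made up 67.8% and 65.2% of it in control and 65.3% and 62.5% in the others, and *PIK3R3* went from 18.0% and 19.7% to 22.7% and 24.3%. The log2 value of *PIK3R1* less that of *PIK3CD* changed by -0.66, from -0.56 and -0.61 to -1.15 and -1.35 (exact two-sided permutation p = 0.333, the smallest possible).

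**Figure D2:**
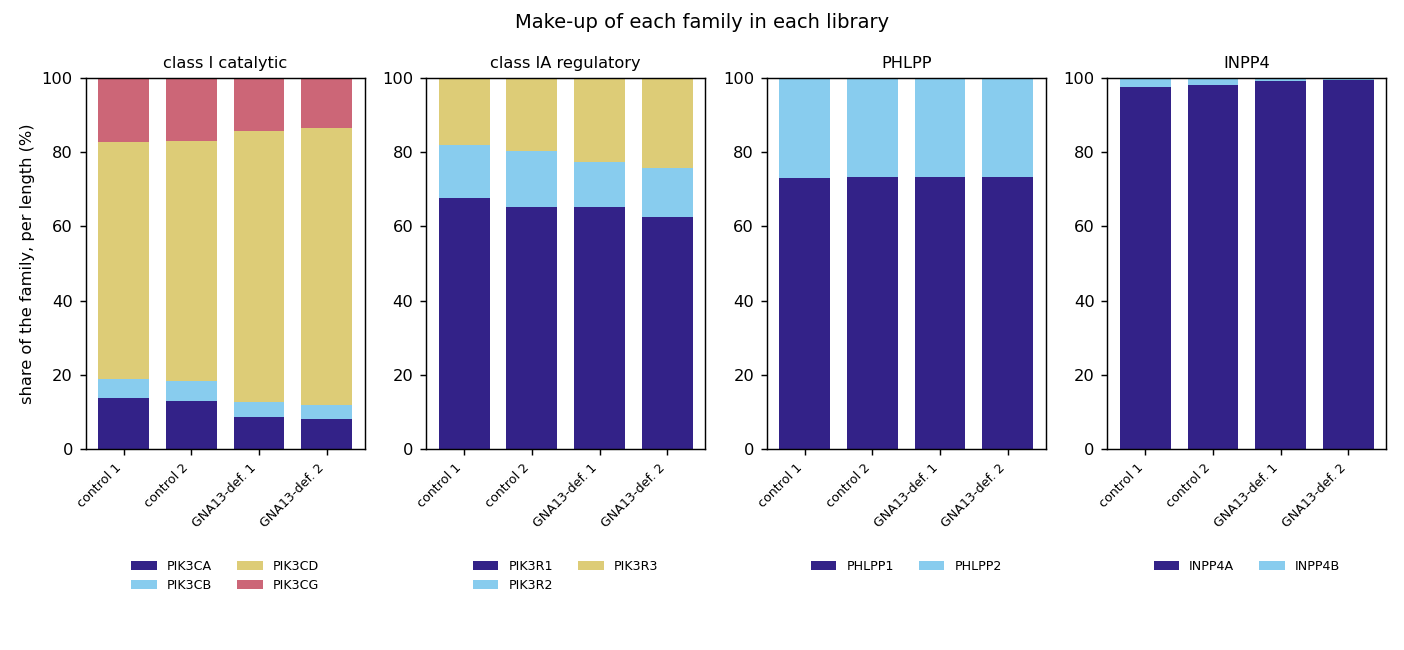
Share (%) of each family's summed RPKM, for each of the 4 libraries; stacked bars add up to 100%. The *PIK3CD* segment widens from 64.0% and 64.8% in control to 73.2% and 74.7% in those labelled GNA13-deficient, while the *PHLPP1* segment lies between 73.2% and 73.5% in all 4 libraries.

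The inhibitor *PIK3IP1* was lower in libraries labelled GNA13-deficient. It had 226 and 247 reads in the control libraries and 87 and 67 reads in the others, with log2 values of 7.85 and 7.93 against 6.48 and 6.17. Both controls were above both other libraries, and the gap was several times the distance between replicates. The difference was -1.56 ± 0.17 (log2, SE, 95% interval -2.01 to -1.11, limma adjusted p = 0.00454). It passed in all 13 alternatives that kept the gene, with differences from -1.71 to -1.24. From the summed reads, 473 in control and 154 in the others, the level per mapped read was 3.02 times lower, with an exact 95% interval of 2.52 to 3.65 that covers counting error only. A larger absolute difference was found for 9.01% of the genes tested, and a lower mean level for 43.8%. The log2 value of *PIK3IP1* less that of *PIK3CD*, the inhibitor relative to the main catalytic subunit, changed by -2.18, from -4.57 and -4.43 to -6.52 and -6.84 (exact two-sided permutation p = 0.333, the smallest possible).

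*INPP4B* had the largest absolute difference of the members and the fewest reads. Reads numbered 22 and 15 in control against 6 and 3 in those labelled GNA13-deficient, so its level was near the detection limit in all 4. The log2 values were 4.49 and 3.88 against 2.62 and 1.69. The groups did not overlap, but replicates lay 0.60 and 0.93 apart. The difference was -2.03 ± 0.50 (log2, SE, 95% interval -3.31 to -0.75, limma adjusted p = 0.0374). From summed reads, 37 in control and 9 in the others, the level per mapped read was 4.05 times lower, with an exact 95% counting interval of 1.92 to 9.54. The call was kept in 7 of 13 alternatives, over all of which the difference ran from -2.49 to -0.95, the smallest with a pseudocount of 10. It was lost without control replicate 1 (-1.73, limma adjusted p = 0.115), without control replicate 2 (-2.33, limma adjusted p = 0.0647) and without GNA13-deficient replicate 2 (-1.56, limma adjusted p = 0.104). The paralogue *INPP4A*, which encodes a lipid phosphatase of the same specificity, carried 868 to 1076 reads and a difference of -0.15 that did not pass the test (limma adjusted p = 0.208) and was 0.06 when each library was centred on its median. Per length, *INPP4B* made up 2.31% and 1.68% of the pair in control and 0.738% and 0.398% in the others.

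Genes like *INPP4B* were sought by the Euclidean distance between centred log2 values over the 4 libraries. Only tested genes with a mean at or above the median were searched, whereas *INPP4B* itself lay above 23.4% of the genes tested. The 3 closest genes in that pool were *NEAT1*, a nuclear long noncoding RNA listed as *NCRNA00084*, at 0.17, *EPSTI1* at 0.65 and *SATB1*, a chromatin organizer, at 0.69. Their differences were -1.90, -2.30 and -2.53. *NEAT1* had log2 values of 9.92 and 9.28 in control and 8.09 and 7.31 in the others. It was picked for closeness over these same 4 values, so its match with the replicates of *INPP4B* was built in. Its level far above detection was built in as well, because genes under the median were not searched. With 4 libraries and many genes searched, this likeness is a description and lends no weight to the *INPP4B* difference.

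*PHLPP1* had log2 values of 9.81 and 9.97 in control against 10.20 and 10.06 in those labelled GNA13-deficient. The groups were separated by less than the distance between replicates. The difference of 0.24 ± 0.09 (95% interval 0.007 to 0.47) did not pass the test (limma adjusted p = 0.111). *PHLPP2*, the paralogue, listed as *PHLPPL*, gave a similar value of 0.23 (limma adjusted p = 0.161) from 425 to 546 reads. The share of *PHLPP1* in the pair, per length, was 73.2% and 73.4% in control and 73.5% in both others.

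*AKT2*, the isoform best known for insulin signalling, was higher by a small amount. Its log2 values were 12.32 and 12.34 in control against 12.50 and 12.54 in those labelled GNA13-deficient, with 5015 to 5645 reads. Replicates lay within 0.04 of each other, and the genotypes did not overlap. The difference was 0.19 ± 0.05 (log2, SE, 95% interval 0.06 to 0.32, 1.14-fold, limma adjusted p = 0.0479). The call was kept in 5 of 14 alternatives and was lost when any 1 library was left out, at 0.18 without control replicate 1, 0.20 without control replicate 2, 0.21 without GNA13-deficient replicate 1 and 0.17 without GNA13-deficient replicate 2 (limma adjusted p from 0.124 to 0.202).

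*AKT1*, the isoform expressed in most tissues, had log2 values of 12.51 and 12.57 in control and 12.65 and 12.73 in the others. The difference of 0.15 ± 0.06 (95% interval -0.004 to 0.31) did not pass the test (limma adjusted p = 0.125), although the genotypes did not overlap. The log2 value of *AKT1* less that of *AKT2* was 0.19 and 0.24 in control and 0.15 and 0.19 in the others, and the groups overlapped (change -0.04, exact two-sided permutation p = 0.667, where the smallest possible is 0.333). The log2 value of *PHLPP1* less that of *AKT1* changed by 0.09, with overlapping groups (exact two-sided permutation p = 0.667). Over the 6 such ratios of members compared, the Benjamini-Hochberg adjusted p was 0.5 for the 4 whose groups did not overlap and 0.667 for the other 2.

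**Figure D3:**
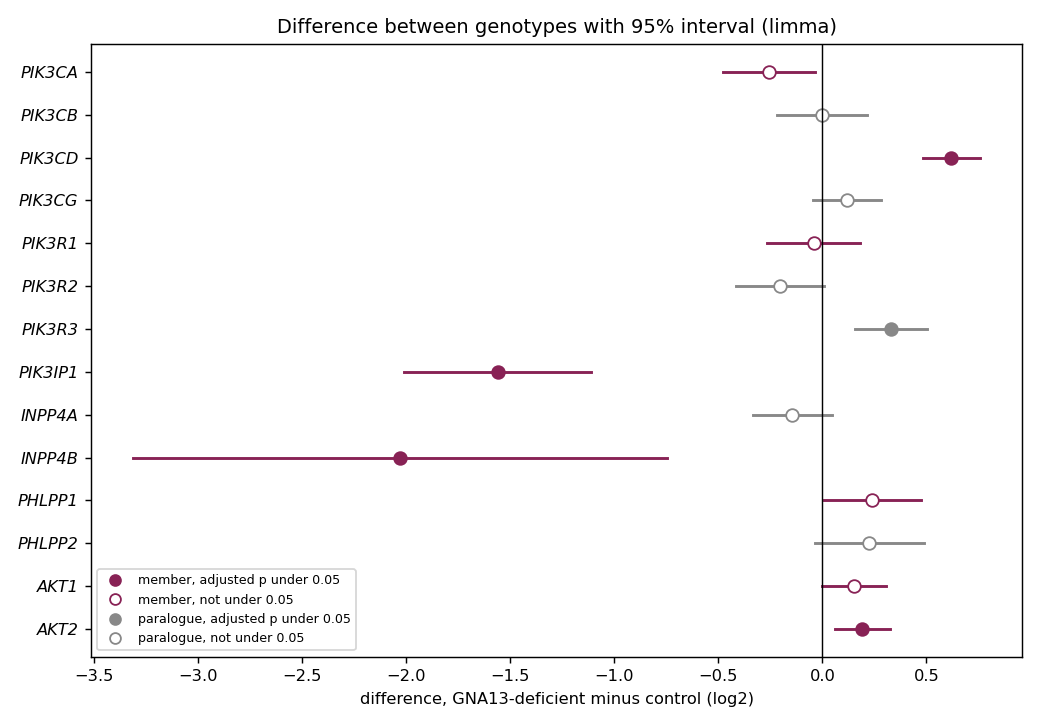
Difference between genotypes (log2, GNA13-deficient minus control) with its 95% interval from limma, for members in purple and their paralogues in grey; filled points had an adjusted p under 0.05. *PIK3CD* at 0.62 and *AKT2* at 0.19 lie to the right of 0, *PIK3IP1* at -1.56 and *INPP4B* at -2.03 to the left, and the interval of *INPP4B* is the widest.

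Levels of the members were compared per length. In RPKM over the main annotated transcript, the control means were 66.4 ± 0.094 for *AKT1*, 32.6 ± 1.88 for *PIK3CD*, 32.3 ± 0.635 for *AKT2*, 16.9 ± 1.32 for *PIK3R1*, 6.74 ± 0.732 for *PIK3CA*, 4.96 ± 0.241 for *PHLPP1*, 3.22 ± 0.0277 for *PIK3IP1* and 0.0703 ± 0.0224 for *INPP4B* (SD, n = 2). In this order *PIK3CD* and *AKT2* did not differ beyond their spread, and the other neighbours did not overlap. In those labelled GNA13-deficient they lay apart, at 48.3 ± 1.02 for *PIK3CD* and 35.6 ± 0.126 for *AKT2* (SD, n = 2), while *PIK3CA* at 5.45 ± 0.508 and *PHLPP1* at 5.67 ± 0.532 overlapped. The order depends on the length used: with the union of all annotated exons in place of the main transcript, the control mean was 18.4 for *PIK3CD* and 17.9 for *AKT1*. By mean normalized value, *PIK3CD* lay above 95.1% of the genes tested, *AKT1* above 94.8% and *AKT2* above 93.9%, whereas *INPP4B* lay above 23.4%.

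**Figure D4:**
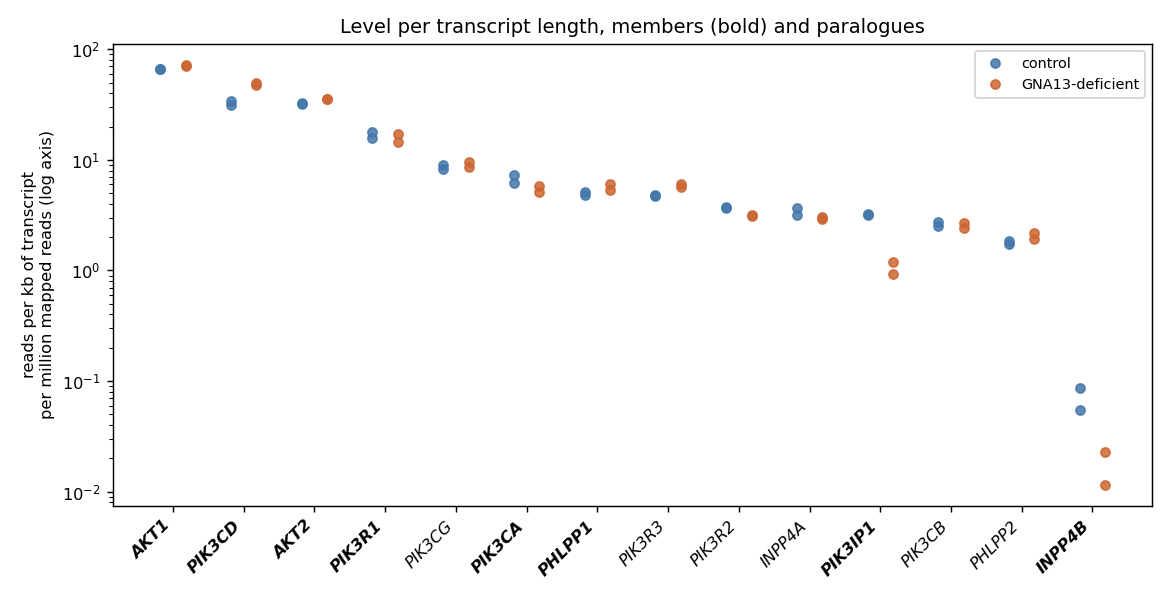
RPKM (reads per kb of transcript, scaled to library size), on a log axis, for members (bold) and paralogues in each library, ordered by the control mean; blue is control and orange is GNA13-deficient. *AKT1* leads at 66.4 in control, *PIK3CD* parts from *AKT2* in the orange points, and *INPP4B* lies below 0.1.

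In GRCh37 coordinates, the members lie on 8 chromosomes and are all annotated as protein coding. *PIK3CD* spans chr1:9689947-9789172 on the plus strand with 26 exon blocks, and *PIK3IP1* spans chr22:31677580-31688520 on the minus strand with 6. *INPP4B* is the longest, at chr4:142944313-143768585 on the minus strand with 824273 bases, and its few reads are spread over 50 exon blocks. *PIK3CA* spans chr3:178865902-178957881 and *PIK3R1* chr5:67511568-67597649, both on the plus strand, as does *PHLPP1* at chr18:60382774-60647666. *AKT1* at chr14:105235686-105262088 and *AKT2* at chr19:40736224-40791443 lie on the minus strand. Apart from *PIK3CA*, the member with the most exon bases under an exon on the opposite strand was *AKT1*, at 6.05%.

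The wider pathway was read through 8 companion groups holding 89 further genes, of which 86 were tested. Of these, 16 were higher and 24 lower in libraries labelled GNA13-deficient, with a median difference of -0.05. Over all genes tested, 13.1% were called higher and 16.6% lower. With each library centred on its median the companion calls turned to 30 higher and 16 lower. Changes ran in both directions in 7 of the 8 groups.

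Among the 10 other PI3K subunits tested, 1 was higher and 2 were lower, with a median difference of 0.15. The higher gene was *PIK3R3*. The lower ones were both class II enzymes, which make other phosphoinositides than PIP3: *PIK3C2B* had 1295 and 1487 reads in control and 381 and 317 in the others (difference -1.93, limma adjusted p = 0.00114), and *PIK3C2A* had 887 and 792 against 584 and 490 (-0.58, limma adjusted p = 0.0196). Of 8 genes in the group of kinases that activate AKT and their partners, none was higher (limma, also none at an unadjusted p under 0.05) and 1 was lower. This was *PRR5L*, an mTORC2-associated protein listed as *FLJ14213*, with 16 and 31 reads in control and 4 and 5 in the others (-2.25, limma adjusted p = 0.0241). Further genes of the group were lower at an unadjusted p under 0.05 only (limma), with differences of -0.54 and -1.26. *PDPK1*, encoding PDK1, and *RICTOR*, a core part of mTORC2, had differences of 0.10 and 0.01 that did not pass the test.

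The phosphoinositide phosphatases held the widest range of the companion groups, from -3.67 to 2.09, with 2 of 11 higher, 3 lower and a median of -0.04. *INPP5J*, a 5-phosphatase that acts on PIP3, had 341 and 474 reads in control against 26 and 35 in those labelled GNA13-deficient (difference -3.67, limma adjusted p = 0.00182). *OCRL*, a 5-phosphatase of endosomes and the Golgi, had 237 and 219 reads against 23 and 18 (-3.41, limma adjusted p = 0.0016). *SYNJ2*, a synaptojanin of the same enzyme class, moved the other way, with 70 and 88 reads against 359 and 281 (2.09, limma adjusted p = 0.00262), and *INPP5F* was higher by 0.37. *INPP5D*, which encodes SHIP1, the 5-phosphatase of blood cells, was lower, at -0.37, from far more reads, 10998 and 11573 against 8724 and 7961 (limma adjusted p = 0.0112).

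Of 11 genes grouped as protein phosphatases of AKT, AKT inhibitors and their relatives, 3 were higher and 3 lower, with a median of 0.09. Both catalytic subunits of PP2A, an AKT phosphatase, were higher, *PPP2CB* by 0.36 and *PPP2CA* by 0.30, as was *THEM4*, an AKT-binding protein, by 0.29. The PP2A scaffold subunit *PPP2R1B* was lower (difference -0.86, limma adjusted p = 0.00222). The other scaffold subunit, *PPP2R1A*, with 8754 to 10502 reads, did not pass the test (-0.06, limma adjusted p = 0.66). The pseudokinases *TRIB1* and *TRIB2* were lower, at -0.80 and -0.52, and their effect on AKT in these cells was not tested. Of the B cell adaptors and AKT coactivators, 3 of 11 were higher and 5 lower, with a median of -0.15. *IRS1*, an insulin receptor docking protein, was higher by 0.47 and *PIK3AP1*, which encodes BCAP, by 0.26. The docking proteins *GAB2* and *GAB1* were lower, at -1.61 and -1.15, *GAB1* from 8034 and 8200 reads to 3704 and 3267 (limma adjusted p = 0.00114). *CR2*, a complement receptor of B cells, was lower at -1.75 from 34 and 36 reads to 7 and 14, the ubiquitin ligase *CBL* at -1.01 and the AKT coactivator *TCL1B* at -0.79.

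Downstream of PIP3, 2 of 11 phosphoinositide-binding effectors were higher and 2 lower, with a median of -0.13. *VAV1*, a guanine nucleotide exchange factor, was higher by 0.43 and the kinase *BTK* by 0.36, and *SGK3*, a kinase related to AKT, and *PLCG2* were lower, at -0.49 and -0.30. Of 12 AKT substrates 2 were higher and 3 lower, with a median of -0.10. The forkhead factors *FOXO4* and *FOXO3* were lower, at -0.59 and -0.57, while *FOXO1* had 3732 and 4120 reads against 3882 and 3391 and a difference of -0.04 (limma adjusted p = 0.702). The Rab GTPase-activating proteins *TBC1D4* and *TBC1D1* went in opposite directions, at 0.56 and -0.43, and *CDKN1B*, encoding p27, was higher by 0.31.

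Upstream, 3 of 12 receptors and GTPases were higher and 5 lower, with a median of 0.01. *IGF1R*, the IGF-1 receptor, had 274 and 311 reads in control against 23 and 17 in those labelled GNA13-deficient (difference -3.81, limma adjusted p = 0.00142), the largest absolute difference among the companion genes. *TNFRSF13C*, the BAFF receptor, was lower at -1.12, *RRAS2*, a Ras-related GTPase that binds PI3K, at -0.53, *INSR* at -0.45 and *IL4R* at -0.24. *RAC2*, the Rac GTPase of blood cells, was higher by 0.78, from 3044 and 3431 reads to 5359 and 5173 (limma adjusted p = 0.00224), *HRAS* by 0.52 and *CD40* by 0.47.

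**Figure D5:**
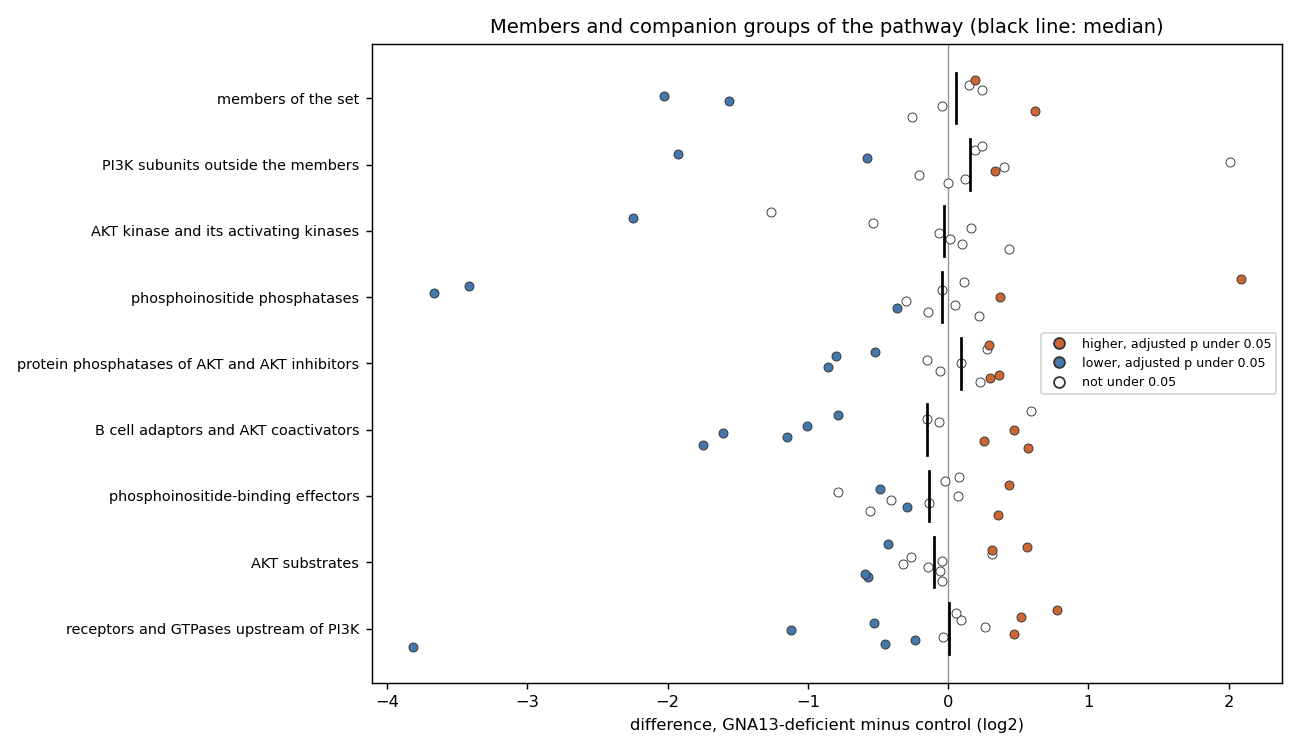
Difference between genotypes (log2, GNA13-deficient minus control) of every tested gene, as 1 point each, for the members and the 8 companion groups; orange points were called higher, blue points called lower and white points not called, and a black line marks each median. The medians lie between -0.15 and 0.15, and *IGF1R* at -3.81 and *INPP5J* at -3.67 are the leftmost points.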

How the data were processed

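RNA from 4 libraries of NUDUL1 cells, 2 labelled control and 2 labelled GNA13-deficient, had been sequenced from a stranded poly(A) kit, aligned by the authors to hg19 with STAR, normalized and deposited as log2 values. HTSeq is named in the submitters' processing notes. The annotation, the strand setting of the counting and the method of normalization are not given in the sources used here. A read length of 2 x 151 bp is given by the methods and another by the labels. A row of mapped read totals, deposited on a linear scale beside the log2 values, was used only as depth. The values unlogged to whole reads times a constant for each library: of the values under 100, 100.0% came out within 0.1 read of a whole number. These recovered reads are the counts printed. In control replicate 2, 1 read is worth 0.984, just below 0 on the log2 scale, so 1 read is listed there as 0. Counts of 3 reads or fewer were treated as the floor, and counting intervals cover counting error only.

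The deposited values of the 16945 genes above 0 in 2 or more libraries were fitted with limma 3.58.1 under R 4.3.3. The model held genotype alone, left 2 residual degrees of freedom and used eBayes with trended variances. Adjustment was by Benjamini-Hochberg over every gene tested, with a threshold of 0.05; 95% intervals are not adjusted. Pairs of members were compared by exact permutation of the libraries (scipy 1.17.1). Levels per length used the MANE Select transcript of GENCODE v44 on GRCh37, the build equal to hg19. Symbols of 21304 of 25066 genes were matched by gene ID to RefSeq. The scripts were tested on simulated data.

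The members, the companion groups and the marker lists were chosen with earlier results of these data known. Genes named were the members, their paralogues, up to 4 called genes with the largest absolute difference in each companion group, *GNA13*, the 3 genes most like the member with the largest called difference, and the cell type markers, some of which are not reported here; *INPP5D*, *PPP2CA*, *THEM4*, *IRS1*, *PIK3AP1*, *TCL1B*, *FOXO1*, *CDKN1B*, *INSR*, *IL4R*, *HRAS*, *CD40*, *PDPK1*, *RICTOR* and *KCNMB3* were named after their values were seen. Lists for natural killer, stromal or epithelial and plasma cells gave 0, 1 and 0 genes higher and 0, 1 and 2 lower. Same-numbered libraries were not treated as pairs, since no source pairs them.

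The alternatives were no filter, a filter that kept genes at or above the median mean, pseudocounts of 1 and 10, quantile normalization, median centring, the replicate number as a block, no variance trend, a robust prior, limma's voom on recovered reads, and leaving out each library in turn.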

Additional observations from a re-analysis of the deposited data

How the results depend on the processing

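With 2 libraries per genotype each gene has 2 residual degrees of freedom of its own, and eBayes drew its spread towards a trend over all genes. *INPP4B*, with 3 to 22 reads per library, is limited by depth. *PIK3CD* was called in all 14 alternatives and *PIK3IP1* in all 13 that kept it; the filter at the median mean removed *PIK3IP1* and *INPP4B*. Members called higher numbered 2, and 1 with no filter, a pseudocount of 1, quantile normalization, no variance trend, voom, or any 1 library left out (1 to 1), because *AKT2* was lost; median centring gave 4. Members called lower numbered 2, and 1 with no filter, the filter at the median, no variance trend or voom, and 1 to 2 with 1 library left out. *AKT2* was 0.19 with no filter (limma adjusted p = 0.0631), 0.191 with a pseudocount of 1 (0.0517), 0.10 with quantile normalization (0.179), 0.192 with no variance trend (0.184), 0.14 with voom (0.104) and 0.17 to 0.21 with 1 library left out. *INPP4B* was -2.03 with no filter (limma adjusted p = 0.179) and with no variance trend (0.0731), -1.94 with voom (0.0508), and -2.49 to -1.56 with 1 library left out; it kept its call at -0.95 with a pseudocount of 10. *PIK3CA* was called, at -0.26, with the filter at the median (limma adjusted p = 0.0316). Median centring raised every difference and the median of all genes by 0.21, from -0.02 to 0.18, so that 69.14% of calls were higher against 44.03%; relative to that shift the differences were as before. Under it *PHLPP1* at 0.45 (0.022) and *AKT1* at 0.36 (0.0222) were called, and *PIK3R1* at 0.17, *PIK3CB* at 0.21, *INPP4A* at 0.063 and *PIK3R2* at 0.003 changed sign, as did *PIK3CB* with quantile normalization at 0.10. *PIK3R1* also changed sign when control replicate 1 (0.006) or GNA13-deficient replicate 2 (0.057) was left out, as did *PIK3CB* (0.026 and 0.049); with 1 library left out the lowest values were -0.142 and -0.055. The cause of these changes was not tested.

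With the replicate number as a block, 6616 genes were called against 5037, and *PIK3CA* at -0.26 (limma adjusted p = 0.0115) and *AKT1* at 0.15 (0.0298) were called; the deviations of same-numbered libraries correlated at 0.453 over 8473 genes, and the block ended no call of a member. Genes called numbered 1999 with no filter, 2718 with no variance trend and 2975 to 3675 with 1 library left out. Companion genes called higher numbered 16, and 5 with no filter, 30 with median centring, 3 with no variance trend and 6 to 10 with 1 library left out. Those called lower numbered 24, and 13 with no filter, 11 with no variance trend, 16 with median centring and 13 to 19 with 1 library left out. For 35 genes outside the members (paralogues, *GNA13* and up to 4 genes per companion group), 393 comparisons of an alternative with the analysis reported kept direction and side of the threshold, 77 lost the call, 6 gained it and 6 changed sign; the other genes named were not run separately.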
